A study of Homo sapiens with 2 samples.

Results

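A set of 9 genes of glutamine metabolism was examined in a map of JARID2 on the chromatin of MDA-MB-231, an established human triple-negative breast cancer cell line. JARID2 joins some forms of PRC2, a Polycomb complex that methylates histone H3 and is known for silencing genes. The members were chosen by name, as rows whose gene symbol was GLS2, GLUD1, GLUL, SLC1A5, SLC7A11, ASNS, GOT1, GOT2 or SLC38A2, with the strength of the GLS2 promoter peak already known, so that the values of that peak are a description and support nothing. They are 9 of 20037 protein-coding genes, and 10 of the 67071 listed peaks were given to them. The series has 1 ChIP library, for which chromatin was pulled down by a polyclonal JARID2 antibody, and 1 library of input DNA with no precipitation, both from untreated cells. The data are the authors' list of ChIP peaks on hg19, and no value of the input library was used here. There was no replicate, so no value has a replicate check and no test between conditions was possible. Fold enrichments, tag counts and false discovery rates (FDRs) are as the authors deposited them per peak, and the depth of the libraries is unknown.

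Glutamine enters cells through transporters such as SLC1A5 and SLC38A2, and glutaminases in mitochondria turn it into glutamate. Glutamate then passes to the tricarboxylic acid cycle through GLUD1 or through aminotransferases such as GOT1 and GOT2, leaves the cell in exchange for cystine through SLC7A11, or is turned back into glutamine by GLUL. Many tumour cells draw heavily on this supply. GLS2 encodes the liver type of glutaminase and is a known target gene of p53.

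The promoters of the 4 members with a promoter peak are shown because the peaks below were placed by their distance from transcription start sites (TSSs). A promoter peak here is one that the authors' annotation places within 3 kb of a TSS. The sequences are RefSeq windows of 300 bases on GRCh38.p14, from 250 bases before to 50 after the gene's most upstream start in the table, all on the minus strand, written 5′ to 3′. They are chr12:56488112-56488411 for GLS2, chr10:99430575-99430874 for GOT1, chr19:46788545-46788844 for SLC1A5 and chr7:97872359-97872658 for ASNS. Capitals mark matches on either strand to any of 6 short motifs: CACGTG (E-box), GCGGGAA (E2F), TGATGNAA (the CARE element bound by ATF4), CCGGAAG (ETS), GGGCGG (SP) and TGANTCA (AP-1). The peaks are on hg19, so how far a window lies under its peak was not determined.
GLS2: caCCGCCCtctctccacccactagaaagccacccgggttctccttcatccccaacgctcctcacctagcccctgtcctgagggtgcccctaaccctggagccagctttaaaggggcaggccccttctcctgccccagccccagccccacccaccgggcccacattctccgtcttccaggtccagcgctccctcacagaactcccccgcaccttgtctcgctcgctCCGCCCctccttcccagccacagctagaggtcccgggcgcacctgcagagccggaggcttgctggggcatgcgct
GOT1: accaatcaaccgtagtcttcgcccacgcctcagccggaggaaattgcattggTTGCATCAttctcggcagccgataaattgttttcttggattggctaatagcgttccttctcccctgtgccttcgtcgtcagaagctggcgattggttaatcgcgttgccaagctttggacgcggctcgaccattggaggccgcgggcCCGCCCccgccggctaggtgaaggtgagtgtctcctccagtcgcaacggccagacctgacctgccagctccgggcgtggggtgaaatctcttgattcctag
SLC1A5: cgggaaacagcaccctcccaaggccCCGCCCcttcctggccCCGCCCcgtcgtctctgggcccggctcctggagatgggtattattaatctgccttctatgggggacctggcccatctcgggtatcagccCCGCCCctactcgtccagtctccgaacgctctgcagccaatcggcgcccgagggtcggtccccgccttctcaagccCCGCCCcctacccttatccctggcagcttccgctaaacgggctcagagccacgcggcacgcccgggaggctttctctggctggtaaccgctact
ASNS: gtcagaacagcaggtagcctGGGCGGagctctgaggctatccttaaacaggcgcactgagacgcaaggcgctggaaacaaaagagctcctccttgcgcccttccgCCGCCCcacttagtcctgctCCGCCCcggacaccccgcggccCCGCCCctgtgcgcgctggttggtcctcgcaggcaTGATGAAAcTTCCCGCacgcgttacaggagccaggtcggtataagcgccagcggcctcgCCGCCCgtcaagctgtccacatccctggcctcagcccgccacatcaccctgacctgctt

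The GLS2 window held 2 matches to GGGCGG and none to the other 5 motifs. At least 1 GGGCGG was also found in the first window of each of the other 7 members with an entry, and in 45.0% of all 35116 windows. The GOT1 and ASNS windows each held 1 match to TGATGNAA, which 3.62% of all windows had. The ASNS match, which starts at base 183 of the window, ended 1 base before the only match to GCGGGAA in these windows, a motif found in 6.55% of all. CACGTG (7.26% of all windows), CCGGAAG (10.3%) and TGANTCA (7.71%) had no match in the 4 windows shown. None of the motifs contains another, and a match is a description of letters, not a binding site. The GLS2 window had a G+C content of 67.3% (median of all windows 58.7%), but a ratio of observed to expected CpG of 0.476, against a median of 0.579. The other members' first windows had CpG ratios of 0.718 (GOT2) to 1.05 (GLUD1). Of these 8 first windows, that of GLS2 was the only one below the median over all windows, but a later SLC1A5 window had 0.331.

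GLS2 carried a single listed peak and it was strong. The peak lay on chromosome 12 (56881797 to 56883196), was 1400 bp wide, overlapped the start of a GLS2 transcript at 56881913 and had its summit 489 bp upstream of that start. It held 84 tags, with a 95% exact Poisson interval of 67.0 to 104.0 that covers counting error only, since PCR copies are not independent molecules. Its fold enrichment over the caller's background was 43.27, its FDR was 0 and its score, read as a multiple of −log10 p, gave a −log10 p of 47.6. Over all peaks the median was 12 tags, a fold enrichment of 5.95 and an FDR of 44.2%. By fold enrichment the GLS2 peak ranked 11 among 13764 promoter peaks and 6 among the 3668 that overlapped a TSS. Just above it stood promoter peaks of IKZF3 (50.3), KDM1A (47.01) and RNF130 (44.63), and just below it those of CSTF3 (36.81) and the transcript RP11-423C15.3 (36.38).

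The position of the GLS2 peak in the list depended on the measure. By score it ranked 20 among promoter peaks, by tags 52, and by tags per kb of peak 94. It held 60.0 tags per kb, against 147.1 for the IKZF3 peak, 168.2 for RNF130 and 71.1 for CSTF3. A total of 44 promoter peaks held a like number of tags, from 76 to 92, and their fold enrichments ran from 3.4 to 47.01 with a median of 11.3. GLS2 was second among them. A high fold enrichment thus came with a tag count at which many promoters had a much lower one, as the plot of tags against fold enrichment shows.

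**Figure D1:**
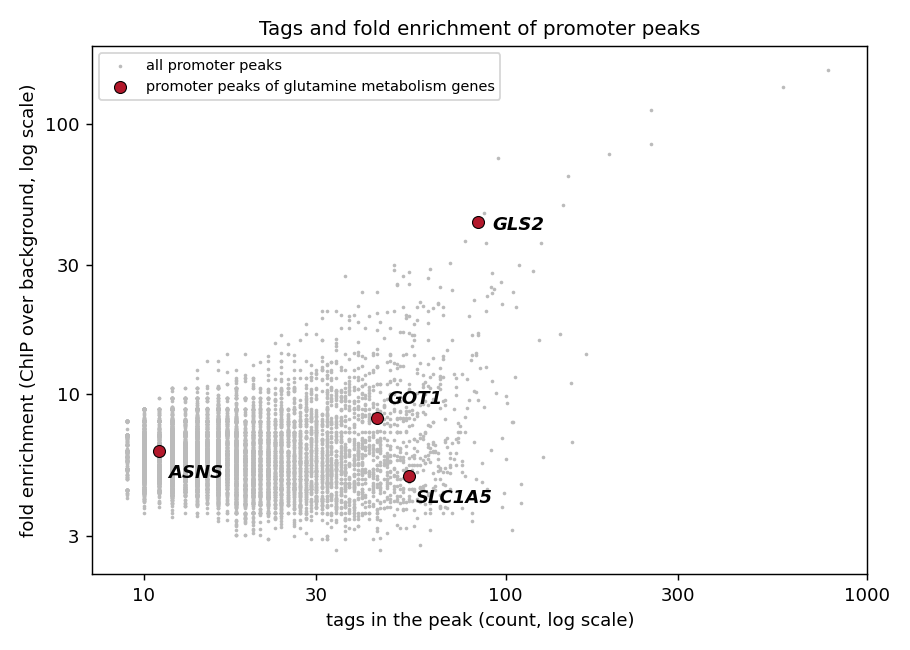
Tags per peak (x axis, count) against fold enrichment (y axis, ChIP over background), both on log scales, for all 13764 promoter peaks in grey and the promoter peaks of GLS2, GOT1, SLC1A5 and ASNS in red. GLS2 (84 tags, 43.27) lies at the upper edge of the cloud, while SLC1A5 (54 tags, 4.98) lies low in it.

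No other peak near GLS2 was strong. Within 100 kb on either side of it the list held 5 further peaks, with fold enrichments of 4.91 to 6.31, 10 to 26 tags and FDRs of 34.8% to 48.8%. The nearest, 18.9 kb away, overlapped the start of SPRYD4, a convergent neighbour whose listed transcript ends at 56864763, just past the 56864736 at which that of GLS2 ends. It had a fold enrichment of 4.91. A peak at the start of TIMELESS, which encodes a replication fork protein, had 6.31. RBMS2, an RNA-binding protein gene, had 5.25, and the unnamed transcripts RP11-348M3.2 and RP11-153M3.1 had 5.3 and 5.82. The GLS2 peak was the only one of these 6 with more than 26 tags.

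**Figure D2:**
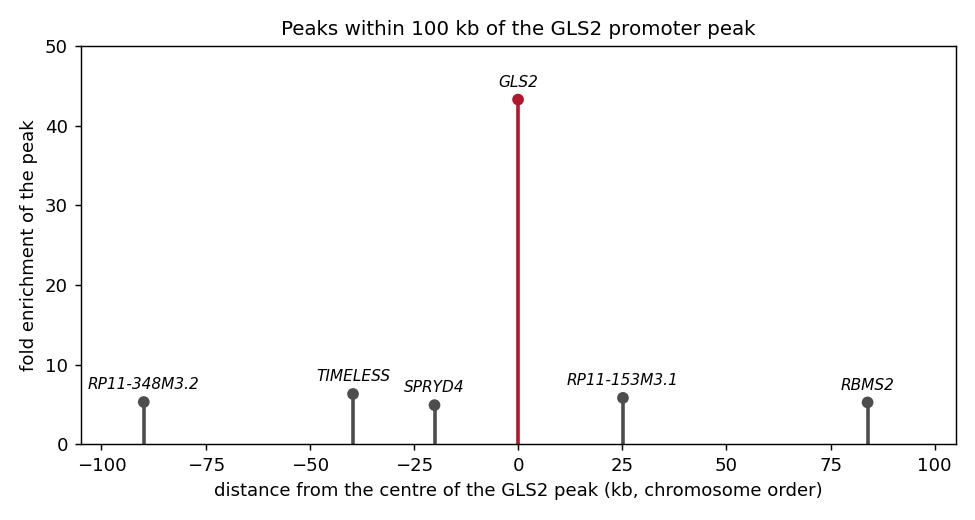
Fold enrichment (y axis) of the 6 listed peaks within 100 kb of the GLS2 promoter peak, by distance from its centre in kb (x axis, in chromosome order). GLS2 stands at 43.27, and the other 5 peaks lie between 4.91 and 6.31.

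Of the other members that encode enzymes acting on glutamate, GOT1 had the peak of highest fold enrichment. GOT1 encodes the cytosolic aspartate aminotransferase of the malate-aspartate shuttle. Its promoter peak on chromosome 10 (101189872 to 101191424) was 1553 bp wide, overlapped the TSS at 101190350 and had its summit 630 bp upstream. It held 44 tags (95% exact Poisson interval 32.0 to 59.1) at a fold enrichment of 8.15 and an FDR of 6.02%, and ranked 1127 among promoter peaks by fold enrichment. A second GOT1 peak in intron 8 of 8 (101182967 to 101183479) had 11 tags, 5.99 and an FDR of 47.3%. GOT2, which encodes the mitochondrial enzyme of the same shuttle, had 1 peak on chromosome 16 (58755902 to 58756348), annotated to a 3′ UTR. Its near edge lay 5.62 kb upstream of the start of the nearest listed GOT2 transcript, which spans 58742953 to 58750287. Whether the peak lay inside a longer GOT2 transcript was not determined. It had 10 tags, a fold enrichment of 6.18 and an FDR of 46.7%. Of these aminotransferase genes, GOT1 had a peak on a start site and GOT2 had none there.

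No peak was listed under GLUD1, the mitochondrial glutamate dehydrogenase that feeds the tricarboxylic acid cycle. Its nearest protein-coding neighbours in RefSeq, FAM25A and SHLD2, had no peak under their symbols either. A gene with no listed peak may hold signal below the authors' threshold, where the smallest listed peak has 9 tags.

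The genes that make glutamine and asparagine had weak peaks. GLUL, glutamine synthetase, had 1 distal intergenic peak on chromosome 1 (182330486 to 182330937), its near edge 24.1 kb downstream of the nearest listed GLUL start. It held 10 tags at a fold enrichment of 5.3 and an FDR of 47.0%. ASNS, asparagine synthetase, which takes its amide nitrogen from glutamine, had 1 promoter peak on chromosome 7 (97502550 to 97503042), its near edge 696 bp and its summit 1069 bp upstream of the TSS at 97501854. It held 11 tags (95% exact Poisson interval 5.49 to 19.7) at 6.18 and an FDR of 45.6%. Both fold enrichments lay between 5.28 and 6.85, the 25th and 75th percentiles of all peaks.

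Of the transporter genes, SLC1A5 had a broad peak at its start, and that peak was low in fold enrichment. SLC1A5 encodes ASCT2, a sodium-dependent importer of glutamine and other neutral amino acids. The peak on chromosome 19 (47289303 to 47290826) was 1524 bp wide, overlapped the TSS at 47290599 and had its summit 451 bp downstream of it. It held 54 tags (95% exact Poisson interval 40.6 to 70.5), yet its fold enrichment was 4.98, below the median of the list, with an FDR of 18.1%. By tags it ranked 275 among promoter peaks and by fold enrichment 10932. The SLC1A5 exon 5 peak (47281850 to 47282266) had 10 tags, 5.72 and an FDR of 47.0%. The third peak given to SLC1A5, annotated to an intron of another gene, had 9 tags, 7.01 and an FDR of 47.9%. Its near edge lay 14.7 kb from the nearest listed SLC1A5 start.

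The other transporters had no promoter peak. SLC38A2, the sodium-coupled transporter SNAT2, had 1 distal intergenic peak on chromosome 12 (46747715 to 46748234), its near edge 8.09 kb downstream of the nearest listed start, with 12 tags, 6.93 and an FDR of 43.1%. No peak was listed under SLC7A11, which encodes xCT, the exchanger of cystine for glutamate. Its neighbours in RefSeq, PCDH18 and NOCT, had 2 peaks and 1 peak, the highest at 8.36 with an FDR of 20.3%.

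**Figure D3:**
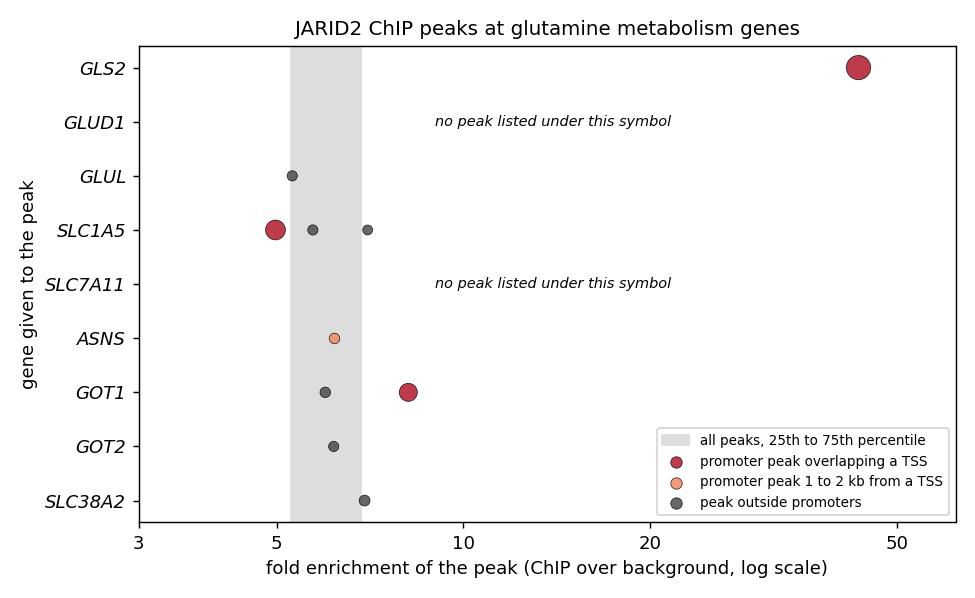
Fold enrichment on a log scale (x axis) of the 10 peaks given to the 9 genes (y axis), with larger points for more tags and colours for the class of the peak. GLS2 stands alone at 43.27, the other 9 peaks lie between 4.98 and 8.15, and the grey band spans 5.28 to 6.85, the 25th to the 75th percentile of all peaks.

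The 10 peaks fell into broad peaks at start sites and narrow ones elsewhere. The 3 peaks that overlapped a TSS, at GLS2, GOT1 and SLC1A5, were 1400 to 1553 bp wide, between percentiles 92.3 and 95.2 of the widths of all peaks overlapping a TSS, whose median was 720 bp. They held 84, 44 and 54 tags, against a median of 21 for peaks overlapping a TSS. The other 7 peaks were 409 to 520 bp wide and held 9 to 12 tags, with fold enrichments of 5.3 to 7.01 and FDRs of 43.1% to 47.9%. An FDR above 40% was given to 7 of the 10 member peaks and to 70.3% of all peaks. The counting intervals of the SLC1A5 (40.6 to 70.5) and GOT1 (32.0 to 59.1) peaks overlap, and that of GLS2 (67.0 to 104.0) overlaps the upper end of the SLC1A5 interval, although the fold enrichments are 43.27, 8.15 and 4.98 for GLS2, GOT1 and SLC1A5. The sources used here do not say how the caller set the background under each peak.

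The members' counts stand beside those of all protein-coding genes. A promoter peak was found at 4 of the 9 members, against 33.1% of all protein-coding genes, and a peak overlapping a TSS at 3, against 13.8%. Any peak was given to 7 of 9, against 56.3%. At an FDR of at most 20% the members with a promoter peak were GLS2, GOT1 and SLC1A5, against 5.44% of protein-coding genes, and at 5% GLS2 was left, against 2.47%. The rule used the GLS2 peak, so nothing is read from these shares. The highest promoter fold enrichment had a median of 7.17 over the 4 members and 6.18 over the 6639 protein-coding genes with a promoter peak, and without GLS2 the members' median was 6.18.

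A promoter peak was found at 23 of 54 further genes of the pathway (42.6%, against 33.1% of protein-coding genes). The highest fold enrichments per gene were 4.4 to 7.95, with a median of 7.04, all below the 43.27 of GLS2. The rule used the GLS2 peak, which ranked 7 among 6639 protein-coding genes by highest promoter fold enrichment. Nothing is read from that gap. The count at an FDR of at most 5% was 1 of 54, GAD1, against 2.47% of protein-coding genes. At 20% it was 4 of 54, with GFPT2, PSAT1 and SLC38A1 added, against 5.44%.

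Among the enzymes that use glutamine as a nitrogen donor, 6 of 10 genes had a promoter peak, against 33.1% of protein-coding genes. The median over the 6 was 7.06. NADSYN1, an NAD synthetase, had 5 promoter peaks. Those with 11 tags (FDR 43.2%) and 13 tags (FDR 37.2%) shared the highest fold enrichment, 7.95. The lowest FDR of the 5, 31.5%, was that of a peak with 19 tags and 5.3. The NADSYN1 promoter peak with the most tags, 25, had 4.42 (FDR 45.8%). GFPT1, the first enzyme of hexosamine synthesis, had 7.28 (FDR 42.9%). Its isoenzyme gene GFPT2 had 6.18 with 24 tags and a lower FDR, 8.57%. Of the purine and pyrimidine synthesis genes, PFAS (7.04, FDR 41.7%), CAD (7.06, FDR 45.6%) and CTPS2 (7.06, FDR 37.5%) had a promoter peak, and PPAT, GMPS and CTPS1 had no listed peak.

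Of the enzymes of glutamate, aspartate, proline and glutathione metabolism, 8 of 23 genes (34.8%) had a promoter peak, against 33.1% of protein-coding genes. The median over the 8 was 7.52. No peak was listed under 11 of the 23, against 8751 of 20037 protein-coding genes. GAD1, which makes the neurotransmitter GABA from glutamate, had a peak of 1280 bp on its TSS on chromosome 2 (171673247 to 171674526), with 40 tags, a fold enrichment of 7.88 and an FDR of 1.01%. BCAT2, a branched-chain aminotransferase, and the malic enzyme gene ME1 had 7.94 each (FDR 29.2% and 44.6%). ALDH18A1, which starts proline synthesis from glutamate, had 7.91 (FDR 34.1%) with 18 tags. Its other promoter peak, at another listed start, had 30 tags, 5.34 and an FDR of 42.9%. PSAT1, the serine pathway aminotransferase that uses glutamate, had a TSS peak of 1720 bp with 58 tags, 7.15 and an FDR of 7.12%. The glutathione synthesis genes GCLC and GSS had no listed peak, and GCLM no promoter peak.

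Of the transporters, 9 of 21 genes (42.9%) had a promoter peak, against 33.1% of protein-coding genes. The median over the 9 was 6.18. SLC7A5, the large neutral amino acid exchanger LAT1 that trades intracellular glutamine for leucine, had 7.23 (FDR 36.0%), and its partner SLC3A2 had 6.87 (FDR 28.7%). SLC25A13, a mitochondrial aspartate-glutamate carrier, had 6.55 (FDR 38.8%). SLC38A1, the close relative of SLC38A2, had a TSS peak on chromosome 12 (46661967 to 46663381) of 1415 bp with 55 tags, a fold enrichment of 4.85 and an FDR of 5.99%. In width, tags and fold enrichment that peak was much like the one at SLC1A5 (1524 bp, 54 tags, 4.98).

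**Figure D4:**
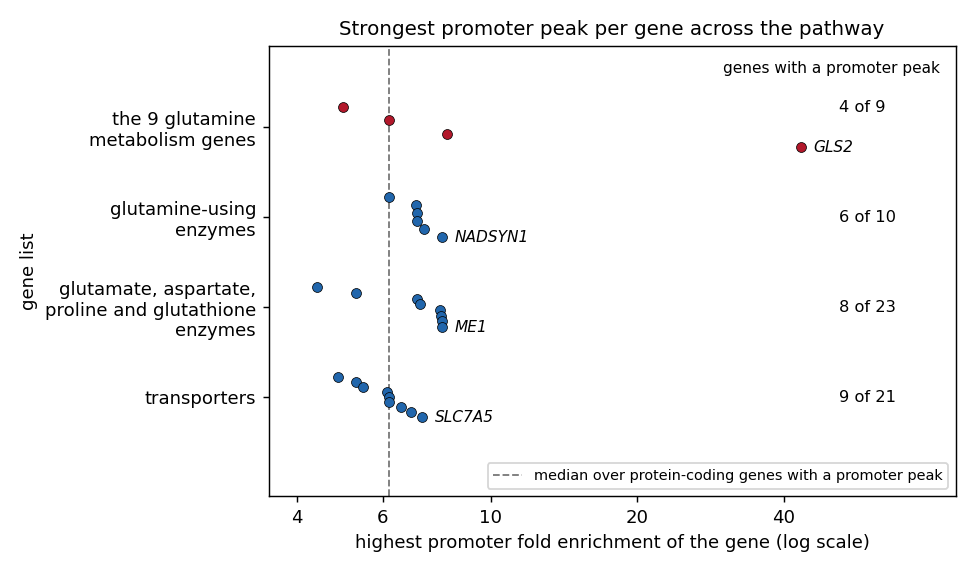
Highest promoter fold enrichment per gene on a log scale (x axis) for the 9 glutamine metabolism genes in red and 3 further pathway lists in blue (y axis), with the number of genes that have a promoter peak at the right. The dashed line is the median over protein-coding genes with a promoter peak, 6.18; GLS2 is at 43.27 and the highest gene of the other lists, NADSYN1, at 7.95.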

How the data were processed

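The tools named in the submitters' processing notes are ChIPseeker, MACS2, MACS, Bowtie 0.12.8 and bcl2fastq, and the build is hg19. The sources used here do not give their roles, parameters or calling thresholds. Per the file headers, the authors deposited for each peak a whole-number tag count, a linear fold enrichment (a ratio, ChIP over background) and an FDR in percent. A further deposited score had an unreadable header and was taken for 10 × −log10 p from its place and its lowest value of 30.

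Symbols were matched to 20037 protein-coding genes of RefSeq (GRCh38.p14) by symbol or by a synonym of 1 gene, which 11310 of 26257 listed symbols did. Each peak carries 1 gene and 1 transcript of that gene, and a peak given to a gene can lie inside another gene. The authors' distance to the start of that transcript runs to the peak's far edge in all 7 member peaks off a start. Distances in kb or bp were therefore recomputed from the near edge or the summit. Counts, ranks, medians and percentiles were computed with Python 3.11.15 and pandas 2.3.3. The functions that count genes, rank peaks and merge peaks were checked on simulated data. Medians and percentiles were not checked in that way. Exact Poisson intervals (95%) came from scipy 1.17.1. Tags in peaks totalled 1000395.

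The members, the 3 pathway lists (54 genes), the motifs and the alternatives were chosen with earlier results of these data known. Named are all members, in each list the 3 genes of highest promoter fold enrichment and any at an FDR of at most 5%, the 3 promoter peaks on either side of GLS2 in rank, the other symbols within 100 kb of its peak, and pseudogenes and antisense transcripts of members. Some genes that this rule picks are not reported here. GFPT2, PFAS, PSAT1, SLC38A1, the genes named as having no listed peak or no promoter peak, and the neighbours of members without peaks were named after their values were seen. Promoter windows were found for 8 of 9 members, SLC7A11 having no entry.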

Additional observations from a re-analysis of the deposited data

How the results depend on the processing

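The counts depended on the limit placed on the peaks, and the members' median did not move by over 1.5 times under any of its 3 alternatives. Members with a promoter peak numbered 4 as listed, 3 within 1 kb by the authors' distance (4 by the peak's near edge, tried after seeing the data), 3 overlapping a TSS, at an FDR of at most 20% or at a −log10 p of at least 5, 2 in the 25% of peaks with the largest fold enrichment and 1 at an FDR of at most 5%. Counting any peak gave 7. Of those 7, 3 had a peak overlapping a listed transcript of the member or naming it as host gene. The listed transcripts were those given with the members' own peaks, so a peak inside an unlisted one could be missed. Of the same 7, 4 were in the top 25%, 3 at a −log10 p of at least 5 and 1 at an FDR of at most 5%. Of the 10 member peaks 1 reached that FDR, and merging peaks within 1 kb left 10. The 23 of 54 further genes became 13 in the top 25%, 12 on a TSS, 7 at a −log10 p of at least 5, 4 at an FDR of at most 20% and 1 at 5%. The rank of the GLS2 promoter peak, 11 by fold enrichment, was 20 by score, 52 by tags and 94 by tags per kb. It was 6 among peaks on a TSS and 7 among protein-coding genes. The other alternatives left their value within 1.5 times. The cause was not tested. Shares over all protein-coding genes were computed for any peak and for promoter peaks as listed, on a TSS or at either FDR limit. The counts of genes at the other limits have no such share, so nothing is read from them. No paired analysis was possible because there was 1 ChIP library. The median peak of the list rests on 12 tags, so the 7 member peaks of 9 to 12 tags carry wide counting intervals.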

Other observations

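Some peaks carried names derived from the members. The antisense transcript SLC7A11-AS1 was given 5 peaks, with fold enrichments of 4.48 to 7.00 and FDRs of 34.6% to 47.1%. No peak was listed under SLC7A11 itself. No listed peak named SLC7A11 as its host gene either. Each peak carries 1 gene and names at most 1 host, and no transcript of SLC7A11 was listed. A peak inside SLC7A11 could therefore still be listed under the antisense name. ASNS had a promoter fold enrichment of 6.18, and its pseudogene ASNSP1 had 2 peaks, 1 of them a promoter peak at its start with 8.83 and an FDR of 33.6%. The glutamine synthetase pseudogene GLULP5 had 1 peak at 7.06 (FDR 43.8%) and the aminotransferase pseudogene GOT2P1 had 1 at 5.6 (FDR 48.8%). Reads shared by a gene and a near-identical copy cannot be told apart in this list, and the sources used here do not say how the authors placed them.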
